A study of Mus musculus with 9 samples.

Results

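Heat shock chaperones bind unfolded protein and help it to fold, and their genes are the classic targets of heat shock factor 1. The HSP70 proteins take up unfolded chains with the help of J-domain (HSP40) and HSP110 partners. The HSP90 proteins hold kinases and hormone receptors in an active form, small heat shock proteins keep damaged chains soluble, and HSP60 with its lid HSP10 folds proteins inside mitochondria. In endothelium, HSP90 is known as a partner of the nitric oxide synthase eNOS and the small heat shock protein HSPB1 as a regulator of actin. The 10 genes described here were the rows of the expression table with the symbols Hspa1a, Hspa1b, Hspa8, Hsp90aa1, Hsp90ab1, Hspb1, Hspd1, Hspe1, Hsph1 and Dnajb1, of 24321 genes in all. Each symbol had exactly 1 row, and all 10 passed the filter on low values (3 or more libraries with an FPKM of 1 or more), as did 9955 genes of the table.

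They were measured by Smart-seq2 RNA-seq in meningeal lymphatic endothelial cells (MLECs) of male C57BL/6 mice labelled as aged 10 weeks. The study's methods do not name Smart-seq2 and describe a poly(T) tail on the first-strand cDNA before amplification, so the protocol is uncertain. By the labels, control mice received PBS, GL261 mice received 100000 cells of the GL261 glioma line, and B16 mice received 100000 cells of the B16 melanoma line, with meninges taken about 3 weeks after GL261 and about 2 weeks after B16. The time after injection and the tumor cannot be told apart under these labels. The study's text differs from them: it describes injection beneath the dura and fewer cells, with fewer of B16 than of GL261. For the time, its results give 2 weeks for both tumors and its methods 2 to 3 weeks. Dose, site and time are therefore uncertain. Each group held 3 libraries, each of them made from 10 cells sorted with CD31, CD45 and LYVE-1 antibodies from the collagenase-digested meninges of 6 pooled mice. The gate is uncertain too: the study's results name PDPN in place of LYVE-1, while its methods name LYVE-1 as the labels do. All groups shared the digestion and the sort, and no undigested sample was analysed here. Both tumors together are called tumor-associated MLECs (6 libraries). Values are FPKM, that is, fragments scaled by transcript length and by library size, so that levels of different genes can be compared. The read depth behind each FPKM is unknown from the table.

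Between 7303 and 8688 genes had an FPKM above 0 in the control libraries, against 8736 to 10852 in the tumor-associated libraries, and the summed FPKM was 652636 to 693117 against 701951 to 888312. Every control library also had fewer aligned reads than every tumor-associated library, so that depth and group cannot be told apart. The median difference in log2(FPKM + 1) over all 9955 genes was 0.20 between tumor-associated and control MLECs. It moved to 0.05 once each library was rescaled to a sum of 1000000 and to -0.04 after quantile normalization, so values on those scales stand beside a difference where its direction or the overlap of the groups turned. The label was checked against markers, and MLECs is kept here only as the study's name for the sorted cells. The 9 lymphatic markers summed to between 13419 and 17005 FPKM in control libraries and between 1075 and 6698 FPKM in tumor-associated ones, and 4 of 8 tested fell (median log2 difference -2.45). Prox1 averaged 32.3 FPKM in control and 4.93 FPKM in tumor-associated libraries, and Lyve1 averaged 1310 and 1097 FPKM. The 8 blood endothelial markers summed to between 2363 and 3157 FPKM and between 4778 and 8186 FPKM, and 6 of 8 rose (median log2 difference 3.82). Flt1, Cd34 and Esam averaged 0.50, 5.81 and 13.2 FPKM in control and 112, 383 and 522 FPKM in tumor-associated libraries. Kdr and Cldn5 averaged lower in tumor-associated libraries. Of 7 leukocyte markers, Ptprc and Cd3e were at 0 in every library, and 2 were tested, of which none passed. The 5 fibroblast markers summed to 16.03 to 47.5 FPKM for control, and at most 3.85 FPKM in tumor-associated libraries, and the 1 tested fell. The 5 mural markers summed to 567 FPKM in Control 1 and to at most 11.4 FPKM in every other library, with Acta2 at 505 FPKM and Myh11 at 57.2 FPKM in Control 1. The sums of the melanocytic, glial and red blood cell markers were at most 9.32 FPKM in any library. The part of cell type and of the mural markers in the chaperone values was not tested, and a change in the share of cells cannot be told apart from a change in RNA per cell.

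The promoters of heat shock genes are known for heat shock elements, which are inverted repeats of the unit GAA that bind heat shock factors as trimers. RefSeq promoter windows (300 bases, build GRCm38.p6) were at hand for 7 of the 10 genes, in 10 entries. They were searched for the pairs GAANNTTC and TTCNNGAA, each of which is its own reverse complement, so that one search covers both strands, and which overlap each other where units follow without a gap. A pair was found in 7 of the 10 entries (6 genes), against 15.1% of all 32851 promoter windows, and 3 units in a row in 4 entries (3 genes), against 0.603% of all windows. Entries are not independent, since both of Hsph1 overlap and the Hspd1 window that holds pairs shares 285 bases with that of Hspe1. The following 30-base stretches, written 5′ to 3′ on the strand of the gene with the matched units in capitals, show what the genes share and where they differ.

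Hspa1a (chr17:34972242-34972271, minus strand): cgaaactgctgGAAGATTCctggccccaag
Hspa1b (chr17:34959324-34959353, minus strand): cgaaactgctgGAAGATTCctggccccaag
Hspb1 (chr5:135887811-135887840, plus strand): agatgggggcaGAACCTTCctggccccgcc
Hspe1 (chr1:55088053-55088082, plus strand): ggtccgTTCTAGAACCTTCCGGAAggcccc
Hspd1 (chr1:55088053-55088082, minus strand): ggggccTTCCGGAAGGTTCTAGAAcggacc
Hsph1 (chr5:149636351-149636380, minus strand): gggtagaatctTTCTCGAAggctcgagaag

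Hspa1a and Hspa1b carried the same stretch, 104 bases before the start of each gene, and their 300-base windows were identical at 296 positions. The 4 differences, with Hspa1a first and positions counted from 1 at the 5′ end of the window, were C44T, T47C, T249G and C276T. Hspe1 and Hspd1 are transcribed away from each other, and their stretches are the opposite strands of 1 piece of DNA that holds 3 pairs in a row. Hsph1 held 3 units in a row after its start as well. Neither window of Dnajb1 held a pair, and the other window of Hspd1 held none either. No window was at hand for Hspa8, Hsp90aa1 and Hsp90ab1. A match describes these letters only.

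None of the 10 genes passed limma's test at an adjusted p of 0.05 in tumor-associated against control MLECs, where 3.93% of all genes tested passed (289 higher, 102 lower). An unadjusted limma p under 0.05 was found for 2 of the 10 (Hspa8 and Hsph1), and for 1889 of all 9955 genes tested, a similar share. None passed in GL261 against control (3.49% of all genes), in B16 against control (2.11%) or in GL261 against B16 (0.01%, which is 1 gene). Of the 10, 3, 2 and 1 had an unadjusted p under 0.05 in those comparisons, as had 1687, 1493 and 548 of the 9955 genes tested. The differences between tumor-associated and control MLECs were above 0 for 5 of the 10 genes with a median of 0.25, beside 57.2% and 0.20 for all genes tested. The study selected genes by a ROC power, which measures on a scale of 0 to 1 how well a gene separates the groups. As computed here, 5 of the 10 were over 0.4 (Hspa8, Hsp90aa1, Hsph1, Hspe1 and Dnajb1), as were 51.6% of all genes. The study's own selection at that threshold was far smaller, so the genes over 0.4 here are not that selection.

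**Figure D1:**
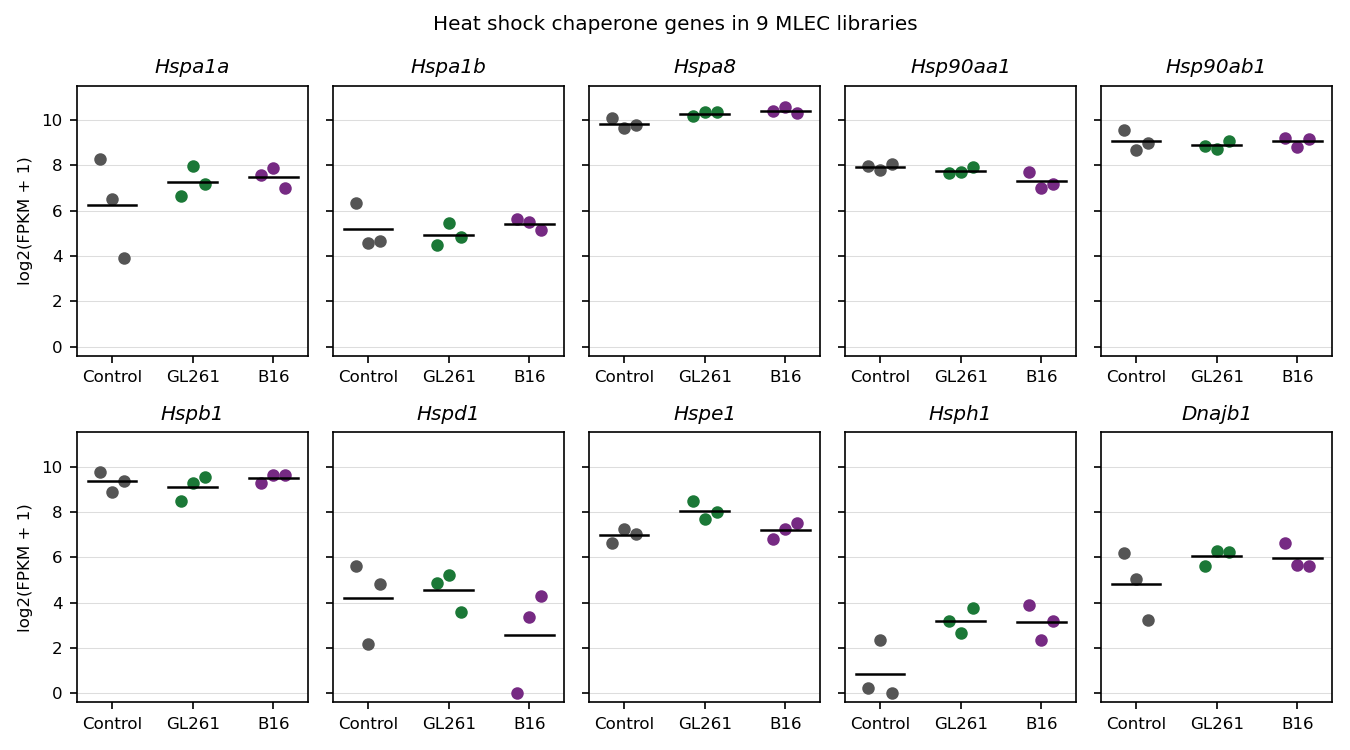
Level of each of the 10 chaperone genes, as log2(FPKM + 1), in the 3 Control, 3 GL261 and 3 B16 libraries (points, in order of library number) with the group mean (bar). Hspa8 is above its highest control library in all 6 tumor-associated libraries, while Hspa1a, Hspd1, Hsph1 and Dnajb1 are spread widely over the control libraries.

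Hspa8, which encodes the constitutive HSP70 protein HSC70 (chr9:40609067-40613283, plus strand, 9 exons, build NCBIM37, as for all gene positions below), had the highest level of the 10 genes and ranked between 73 and 139 of all genes in each library. Its FPKM was 1103, 799 and 874 in Control 1 to 3, 1144, 1294 and 1295 in GL261 1 to 3, and 1338, 1513 and 1255 in B16 1 to 3. Every tumor-associated library lay above every control library. Hspa8 was the only 1 of the 10 genes whose groups did not overlap, against 10.5% of all genes tested. Control libraries averaged 925 ± 158 FPKM (SD, n = 3), tumor-associated ones 1307 ± 121 FPKM (SD, n = 6). The log2 difference was 0.51 (SE 0.18, 95% interval 0.12 to 0.89, limma adjusted p = 0.145). A two-sided exact permutation test of Hspa8 alone gave p = 0.0119, the smallest that 84 divisions of 9 libraries allow. This value restates that the groups did not overlap. The exact p-values of single genes, here and below, are not adjusted for the 10 genes tested.

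The difference of Hspa8 depended on the scale. After rescaling to a common sum, control libraries spanned 1153 to 1657 and tumor-associated libraries 1362 to 2156, so that the groups overlapped, and the log2 difference was 0.28 (limma adjusted p = 0.457). After quantile normalization it was 0.12 (adjusted p = 0.807). In single tumors, the log2 difference of Hspa8 from control was 0.44 for GL261 (SE 0.19, limma adjusted p = 0.273) and 0.57 for B16 (SE 0.19, adjusted p = 0.176), and the former was -0.07 after quantile normalization. GL261 and B16 share the control libraries. Between them, Hspa8 differed by -0.14 (GL261 minus B16, 95% interval -0.56 to 0.29). Within groups Hspa8 had an SD of 0.17 on the log2 scale, lower than that of all but 0.472% of the genes tested. It was not compared with genes of a similar level. The annotation places the small nucleolar RNA genes Snord14c, Snord14d and Snord14e within Hspa8 on the same strand.

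Hspa1a and Hspa1b encode the stress-inducible HSP70 proteins, whose genes have 1 exon each and lie side by side on the minus strand (chr17:35106144-35109069 and chr17:35093381-35096183). Hspa1a was at 306, 91.5 and 14.3 FPKM in Control 1 to 3, at 98.0, 249 and 142 FPKM in GL261 1 to 3, and at 187, 232 and 126 FPKM in B16 1 to 3. The control libraries included both the highest and the lowest value of all 9, and all tumor-associated values lay between them. Control libraries averaged 137 ± 151 FPKM (SD, n = 3), tumor-associated ones 172 ± 60.6 FPKM (SD, n = 6), and the log2 difference was 1.12 (SE 0.70, 95% interval -0.40 to 2.63, limma adjusted p = 0.408). It was 2.13 without Control 1, the library with the mural markers (limma adjusted p = 0.0901), and -0.03 without Control 3. The sign of the difference in Hspa1a thus rested on Control 3.

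For Hspa1b, FPKM was 80.1, 23.0 and 24.2 in Control 1 to 3, 21.4, 43.6 and 27.5 in GL261 1 to 3, and 49.4, 43.9 and 34.1 in B16 1 to 3. Control 1 was again the highest library, and the groups overlapped. The log2 difference was -0.01 (SE 0.51, 95% interval -1.11 to 1.08, limma adjusted p = 0.993), and it was 0.56 without Control 1.

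The coding sequences of Hspa1a and Hspa1b were 99.4% identical, with 8 mismatches and 3 gap positions over 1929 aligned bases, so reads may be split between them. Of the 150-base windows (the read length) of the Hspa1a transcript, 38.7% occurred unchanged in that of Hspa1b, whereas none occurred in that of Hspa8 (74.1% identity). The ratio of Hspa1a to Hspa1b was 3.70 to 5.72 in 8 libraries and 0.592 in Control 3. The single values of both genes are therefore uncertain, and their sum is less so. Summed, they were at 386, 115 and 38.5 FPKM in Control 1 to 3, at 119, 293 and 169 FPKM in GL261 1 to 3, and at 236, 276 and 160 FPKM in B16 1 to 3. The highest and the lowest sum were again both in control libraries. Their log2 difference was 0.73 (SE 0.57, 95% interval -0.50 to 1.95, limma adjusted p = 0.509). The predicted gene Gm20481 overlaps Hspa1a by 2213 bases on the opposite strand, and reads of such amplified cDNA carry no strand.

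**Figure D2:**
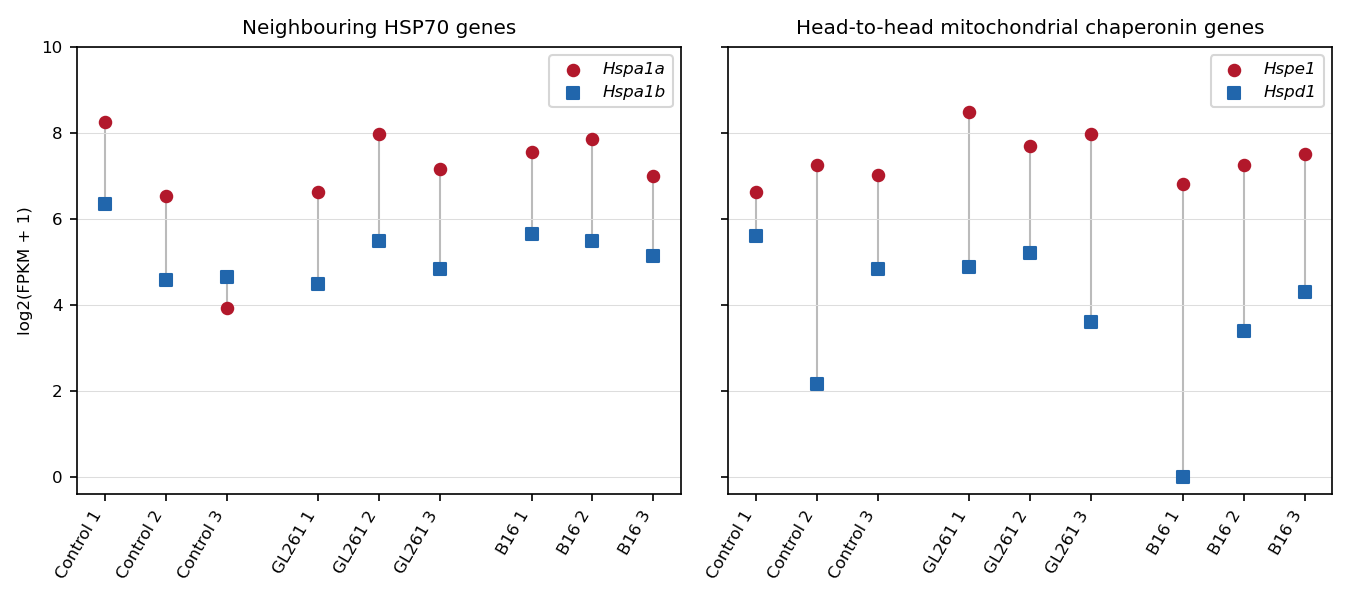
Levels, as log2(FPKM + 1), of the neighbouring HSP70 genes Hspa1a and Hspa1b (left) and of the head-to-head genes Hspe1 and Hspd1 (right) in each of the 9 libraries, with a grey line joining both genes of 1 library. Hspa1a is the higher gene in all libraries but Control 3, and Hspd1 is at 0 in B16 1 while Hspe1 is not.

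Dnajb1 encodes the main inducible HSP40 partner of HSP70 (chr8:86132074-86135801, plus strand, 3 exons). Its FPKM was 70.9, 31.5 and 8.48 in Control 1 to 3, 47.6, 75.8 and 74.9 in GL261 1 to 3, and 97.9, 50.0 and 47.8 in B16 1 to 3. Control 2 and Control 3 lay below all tumor-associated libraries, but Control 1 lay in the middle of them, above 3 and below 3. Control libraries averaged 36.9 ± 31.6 FPKM (SD, n = 3), tumor-associated ones 65.7 ± 20.6 FPKM (SD, n = 6), and the log2 difference was 1.19 (SE 0.57, 95% interval -0.04 to 2.42, limma adjusted p = 0.276, exact permutation p = 0.0476). It was 1.87 without Control 1 and 0.41 without Control 3.

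Hsph1 encodes HSP110, which releases nucleotide from HSP70 (chr5:150416862-150438951, minus strand, 18 exons). It had the lowest mean log2 level of the 10 genes, at the 42.5th percentile of the genes tested. Its FPKM was 0.187, 4.17 and 0 in Control 1 to 3, 8.04, 5.34 and 12.4 in GL261 1 to 3, and 14.0, 4.15 and 8.17 in B16 1 to 3. A value of 0 is what the table lists and can be a failed estimate at this level. Hsph1 met the filter on low values only through the tumor-associated libraries, since Control 2 alone of the control libraries reached an FPKM of 1. All tumor-associated libraries were above Control 1 and Control 3, and 1 of them (B16 2) was just below Control 2. The log2 difference was 2.30 (SE 0.76, 95% interval 0.65 to 3.95, limma adjusted p = 0.118, exact permutation p = 0.0238), the largest of the 10 genes on this scale. Without Control 2 it was 3.05 (limma adjusted p = 0.0454), and leaving out any other single library kept the adjusted p above 0.05. With a pseudocount of 0.1 in place of 1 it was 4.02 (adjusted p = 0.103).

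Hsp90aa1 (chr12:111928815-111940938, minus strand) and Hsp90ab1 (chr17:45704724-45710220, minus strand) encode the inducible and the constitutive cytosolic HSP90 protein, with 11 exons each. Hsp90aa1 was at 250, 224 and 266 FPKM in Control 1 to 3, at 200, 207 and 244 FPKM in GL261 1 to 3, and at 210, 129 and 143 FPKM in B16 1 to 3. All B16 libraries were below all control libraries, and GL261 3 was the only tumor-associated library above a control library. Control libraries averaged 247 ± 21.4 FPKM (SD, n = 3), tumor-associated ones 189 ± 43.9 FPKM (SD, n = 6), with a log2 difference of -0.41 (SE 0.29, 95% interval -1.03 to 0.20, limma adjusted p = 0.451, exact permutation p = 0.0952). After rescaling to a common sum, Hsp90aa1 was the only 1 of the 10 genes without overlap (control 323 to 408, tumor-associated 184 to 318), against 10.9% of all genes tested, and its log2 difference was -0.64 (limma adjusted p = 0.239). The gene without overlap between tumor-associated and control MLECs was thus Hspa8 on the deposited scale and Hsp90aa1 on the rescaled scale.

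Hsp90ab1 was at 744, 405 and 510 FPKM in Control 1 to 3, at 463, 426 and 541 FPKM in GL261 1 to 3, and at 590, 443 and 573 FPKM in B16 1 to 3. It exceeded Hsp90aa1 in every library. Its groups overlapped, with a log2 difference of -0.09 (SE 0.24, 95% interval -0.62 to 0.43, limma adjusted p = 0.879) that was 0.14 without Control 1. The HSP90 coding sequences were 75.7% identical and shared no 150-base window.

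Hspb1 encodes the small heat shock protein HSP25/27 (chr5:136363789-136365433, plus strand, 3 exons). It was the second highest of the 10 genes by mean log2 level. Its FPKM was 878, 467 and 665 in Control 1 to 3, 359, 626 and 732 in GL261 1 to 3, and 609, 784 and 801 in B16 1 to 3. The groups overlapped, and GL261 1 stood below all other libraries. Control libraries averaged 670 ± 206 FPKM (SD, n = 3), tumor-associated ones 652 ± 164 FPKM (SD, n = 6), with a log2 difference of -0.04 (SE 0.29, 95% interval -0.67 to 0.59, limma adjusted p = 0.959). It was 0.18 without Control 1.

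Hspe1 and Hspd1 encode the mitochondrial chaperonin, HSP10 and HSP60. Hspe1 (chr1:55144976-55148151, plus strand, 4 exons) and Hspd1 (chr1:55134679-55145087, minus strand, 12 exons) lie head to head and overlap by 112 bases, and reads in the overlap cannot be assigned to one of them without strand. Hspe1 was at 98.1, 151 and 128 FPKM in Control 1 to 3, at 357, 208 and 252 FPKM in GL261 1 to 3, and at 111, 152 and 180 FPKM in B16 1 to 3. All GL261 libraries were above all control and all B16 libraries, while control and B16 overlapped. Mean FPKM was 126 ± 26.4 in control, 272 ± 76.6 in GL261 and 148 ± 34.5 in B16 MLECs (SD, n = 3 each).

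The log2 difference of Hspe1 was 1.09 in GL261 against control (SE 0.35, 95% interval 0.33 to 1.86, limma adjusted p = 0.125), 0.23 in B16 against control (95% interval -0.54 to 0.99, adjusted p = 0.820) and 0.87 in GL261 against B16 (95% interval 0.10 to 1.63, adjusted p = 0.827). For both tumors together it was 0.66 (95% interval -0.13 to 1.45, limma adjusted p = 0.355). After rescaling, GL261 (234 to 425) remained above control (147 to 217), but overlapped B16 (147 to 235). With aligned reads as covariate, the difference for both tumors was -0.30 and that of GL261 from control 0.42.

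Hspd1 was at 47.6, 3.49 and 27.5 FPKM in Control 1 to 3, at 28.5, 36.0 and 11.1 FPKM in GL261 1 to 3, and at 0, 9.46 and 18.5 FPKM in B16 1 to 3. All 3 groups overlapped. The within-group SD of Hspd1, 1.74 on the log2 scale, was the widest of the 10 genes. The log2 difference was -0.64 (SE 1.09, 95% interval -2.99 to 1.71, limma adjusted p = 0.804), and it was 0.06 without Control 1 and 0.07 without B16 1. Although HSP10 and HSP60 act together, the ratio of Hspe1 to Hspd1 ranged from 2.06 in Control 1 to 43.2 in Control 2, and Hspe1 was present at 111 FPKM in B16 1, where Hspd1 is listed at 0.

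**Figure D3:**
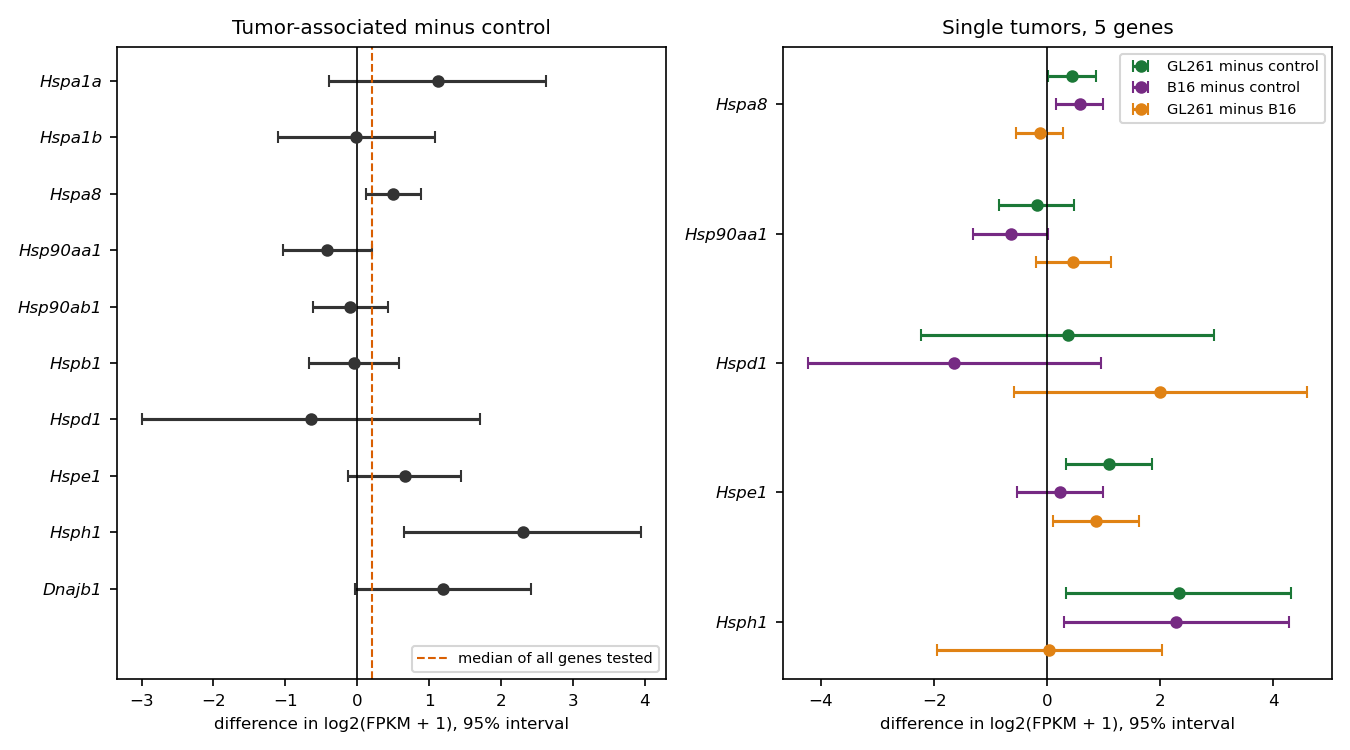
Difference in log2(FPKM + 1) with its 95% interval from limma, for tumor-associated minus control MLECs in all 10 genes (left, dashed line at the median of all genes tested, 0.20) and for single tumors in Hspa8, Hsp90aa1, Hspd1, Hspe1 and Hsph1 (right). On the left, the intervals of Hspa8 and Hsph1 alone lie above 0, and neither gene passed after adjustment over all genes.

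Beyond Hspa8 and Hspe1, few genes separated single tumors from control. In GL261 against control, 3 of the 10 genes did not overlap (Hspa8, Hspe1 and Hsph1, all higher), against 22.5% of all genes tested. In B16 against control these were 2 of 10 (Hspa8 higher, Hsp90aa1 lower), against 17.2%, and in GL261 against B16 1 of 10 (Hspe1), against 13.8%. Hsph1 differed from control by 2.32 in GL261 (SE 0.91, limma adjusted p = 0.213) and by 2.28 in B16 (SE 0.91, adjusted p = 0.266). For Hsp90aa1 the difference was -0.18 in GL261 (adjusted p = 0.811) and -0.64 in B16 (adjusted p = 0.345) by limma. GL261 minus B16 was 0.46 for Hsp90aa1 (95% interval -0.20 to 1.12) and 2.00 for Hspd1 (95% interval -0.59 to 4.60). After rescaling, the range of Hspa8 overlapped that of control (1153 to 1657) in GL261 (1362 to 1685) and in B16 (1642 to 2156), and that of Hsph1 in GL261 overlapped control as well (6.01 in both), whereas Hsp90aa1 was below control in both tumors.

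By mean level, the 10 genes ranged from the 42.5th (Hsph1) to the 99.0th percentile (Hspa8) of the genes tested, with a median of 93.7. They made up 0.317% to 0.538% of the summed FPKM of a library, with both ends of that range in control libraries (Control 2 and Control 1). The within-group SD was below the median of all genes (1.07) for 8 of the 10, with a median of 0.54. Hspa1a (1.34) and Hspd1 (1.74) were the exceptions. The SDs were set against all genes tested, not against genes of a similar level. Over the 9 libraries, Pearson's r of the 45 pairs had a median of 0.13 and was positive for 27 pairs, from -0.62 (Hspa1b with Hspe1) to 0.92 (Hspa1a with Dnajb1). These libraries share group and depth, so the r values are a description. The 5 genes most like the mean of the 10 over the 9 libraries were Pds5a (r = 0.98), Ddit3 (0.97), Trove2 (0.97), Ywhaz (0.96) and Pola2 (0.96). They were picked as the highest r among all genes tested outside the 10, so high values follow from the choice. Pds5a (0 to 6.18 FPKM) and Trove2 (0.097 to 6.65 FPKM) were at low levels. Among the control libraries, Control 1 had the highest mean of the 10 genes (7.06, against 6.29 and 5.99). It lay within the range of GL261 (6.84 to 7.14) and above that of B16 (6.71 to 6.90).

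The regulators and partners of these chaperones were read from fixed lists, in tumor-associated against control MLECs. Of the 4 heat shock factor genes, 2 were tested and neither passed. Hsf1, the main regulator of the heat shock response, differed by -0.34 (limma adjusted p = 0.811) and was at 26.2 to 30.1 FPKM for control, and 7.49 to 60.8 FPKM in tumor-associated libraries. Hsf2 differed by -1.45 (adjusted p = 0.370). None of 13 other cytosolic HSP70, HSP110 and HSP40 genes passed (median 0.26, 10 above 0). Over all genes tested, 3.93% passed, 57.2% were above 0 and the median was 0.20. The largest difference was that of the HSP40 gene Dnaja4 (-3.14, limma adjusted p = 0.0907), with 41.4, 6.20 and 63.7 FPKM in Control 1 to 3 and at most 6.69 FPKM in tumor-associated libraries. Of 7 further small heat shock protein genes 2 were tested and neither passed. Hspb8, a partner of BAG3 in chaperone-assisted autophagy, was at 0, 48.2 and 0 FPKM in Control 1 to 3 and at 11.9 to 100.2 FPKM in tumor-associated libraries (difference 3.91, adjusted p = 0.0710). It met the filter on low values only through the tumor-associated libraries.

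Among 16 cochaperones of HSP70 and HSP90, 1 rose, none fell, and the median was 0.23, beside 3.93% called and 0.20 for all genes tested. The gene that rose was Fkbp5, a cochaperone of HSP90 that restrains the glucocorticoid receptor and is itself induced by glucocorticoids. Fkbp5 stood at 0 in each of the 3 control libraries and at 30.5, 29.3 and 21.4 FPKM in GL261 1 to 3 and 9.75, 20.9 and 22.7 FPKM in B16 1 to 3. No library overlapped between the groups (limma adjusted p = 0.00160). Fkbp5 met the filter on low values only through the tumor-associated libraries. With control at 0, the fitted log2 difference depended on the pseudocount, at 4.47 (SE 0.63) with 1 and 7.73 with 0.1, and is no bound. The next largest, Stip1, the adaptor between HSP70 and HSP90, differed by 2.04 (adjusted p = 0.264). Fkbp5, Hspb8 and Dnaja4 are in the list of genes that the study selected on these libraries, so they are not independent evidence here.

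Of 18 chaperones of the endoplasmic reticulum, 1 rose, none fell, and 13 were above 0 (median 0.34). For this list and the next, the values of all genes tested were 3.93% called, 57.2% above 0 and a median of 0.20. The HSP40 gene Dnajb11, a partner of BiP, was at 14.1, 14.5 and 22.4 FPKM in Control 1 to 3 and at 32.3 to 88.5 FPKM in tumor-associated libraries. Its groups did not overlap, and it rose by 1.87 (SE 0.43, limma adjusted p = 0.0309). That call was lost in 10 of 18 alternatives, among them without Control 1, Control 2, GL261 1, GL261 2, B16 2 or B16 3 (adjusted p over the 9 libraries left out 0.0167 to 0.0776) and after rescaling (difference 1.66, adjusted p = 0.0582) or without the trend in limma (adjusted p = 0.0562). BiP itself (Hspa5) differed by 0.18 (adjusted p = 0.814). In the list of 11 stress and ubiquitin genes, 1 rose and none fell (median 0.08). Xbp1, a transcription factor of the unfolded protein response, was at 31.0, 75.1 and 58.6 FPKM in Control 1 to 3 and at 142.7 to 257.8 FPKM in tumor-associated libraries, without overlap, and rose by 1.83 (SE 0.35, limma adjusted p = 0.0112). Ddit3, which encodes the stress factor CHOP, had the largest difference of that list (3.06, adjusted p = 0.188), with 56.6, 0 and 0 FPKM in Control 1 to 3 and 9.24 to 148.2 FPKM in tumor-associated libraries. Ddit3 too met the filter only through the tumor-associated libraries.

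Of 14 subunits of the chaperonin CCT and of prefoldin, which fold actin and tubulin, 13 were above 0 (median 0.52), and none passed. Here and for the lists below, 57.2% of all genes tested were above 0 (median 0.20), and 3.93% passed. The largest differences were those of Cct3 (1.73, limma adjusted p = 0.324) and of prefoldin subunit Pfdn2 (1.40, adjusted p = 0.379). Of 9 other mitochondrial chaperones and proteases 8 were tested, 4 were above 0 (median -0.07) and none passed. The HSP90 homologue Trap1 differed by -1.92 (adjusted p = 0.257) and the protease Lonp1 by 1.88 (adjusted p = 0.260). Immediate early genes, which respond within minutes to stimulation and to tissue handling, were taken as a last list. Of 19 such genes 18 were tested, 1 rose and 1 fell (median 0.11). Zfp36, whose protein destabilises mRNA, rose by 1.30 (SE 0.33, limma adjusted p = 0.0468), with 102.6 to 262.4 FPKM for control, and 251.6 to 508.7 FPKM in tumor-associated libraries. Its groups overlapped at Control 1, and the call was lost in 15 of 18 alternatives, among them the removal of any library but Control 1 or GL261 1 (limma adjusted p 0.0204 to 0.1503) and rescaling (difference 1.08). The transcription factor gene Egr1 fell by 1.31 (SE 0.29, limma adjusted p = 0.0231), from 591 to 1112 FPKM in control to 212 to 467 FPKM in tumor-associated libraries, without overlap. The call of Egr1 was lost in 6 of 18 alternatives, among them without Control 1 (difference -1.10, adjusted p = 0.0984) or Control 2 (-1.27, adjusted p = 0.0632), without the low-value filter (adjusted p = 0.0513) and without the trend in limma (adjusted p = 0.145). Fkbp5 and Xbp1 passed whichever single library was left out, but Xbp1 did not pass without the trend (limma adjusted p = 0.0554). Since Fkbp5 was at 0 in every control library and met the filter only through tumor-associated ones, leaving out a single library could hardly change its call. With aligned reads as covariate, none of these 5 genes passed (limma adjusted p 0.251 to 0.459).

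**Figure D4:**
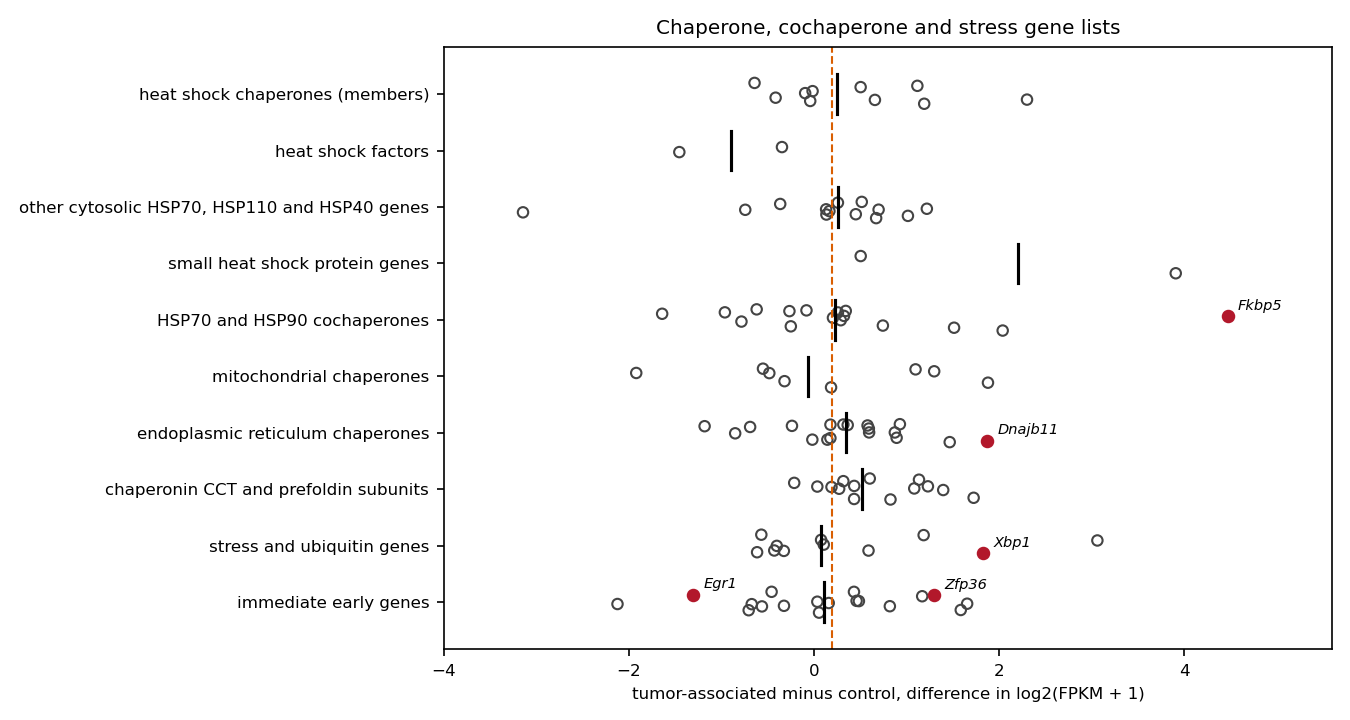
Difference in log2(FPKM + 1) between tumor-associated and control MLECs for each gene tested of the 10 chaperones and of the other lists (points), with the median of each list (black bar) and of all genes tested (dashed line, 0.20). Filled points passed limma's test at an adjusted p of 0.05 and are named, and none of the 10 chaperones is among them.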

How the data were processed

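The authors aligned trimmed paired-end reads to mm9 with TopHat2 2.0.12 and deposited FPKM from Cufflinks 2.2.1, 1 row a symbol. The gene annotation given to Cufflinks is not given in the sources used here. No count model can be run on FPKM, and no interval for counting error can be given. FPKM were taken to log2(FPKM + 1) and tested with limma 3.58.1 in R 4.3.3 (eBayes, trend fitted). The 9955 genes with 3 or more libraries at an FPKM of 1 or more entered, p-values were adjusted over all of them by Benjamini-Hochberg, and the threshold was 0.05. Fold differences on this scale understate the change of low genes. GL261 and B16 were joined for tumor-associated MLECs, and comparisons of single tumors used all 9 libraries in 3 groups. Each of the 10 genes was also tested alone by an exact two-sided permutation test. The procedure was tested on simulated data. Groups and replicate numbers came from the labels, which describe biological replicates from separate pools of mice. The labels and the study's text differ on the injection (cisterna magna or subdural) and the number of cells. On the time and the gate (LYVE-1 or PDPN), the study's results differ from the labels, while its methods give a range of weeks and LYVE-1. The labels were followed throughout. The number of aligned reads per library, from the study's supplement, served to compare depth between the groups and as a covariate in an alternative. Gene positions and transcripts are those of GENCODE M1 (NCBIM37, the coordinates of mm9), and promoters are those of RefSeq. Named genes were all 10 chaperones and, in each other list, those past the threshold (at most 4) or else 1 or 2 with the largest difference. Hspa5, Hsf1 and Stip1 were named in addition, after their values were seen. The 10 genes and the lists were chosen with earlier results of these data known. Alternatives were the pseudocount, the filter, scaling, the trend, a replicate block, the covariate, the libraries fitted and each library left out. The overlap of the groups after rescaling was added after the data were seen.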

Additional observations from a re-analysis of the deposited data

Results flagged for a closer look

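For each of the 10 chaperones, the lowest and the highest of the 6 tumor-associated libraries were compared with the next one, as a share of the range of the group on the log2(FPKM + 1) scale. The share was above Dixon's 95% critical value for 2 of the 10 genes. Hspb1 in GL261 1 was far below the other tumor-associated libraries (share 0.658), at 359 FPKM against 609 FPKM or more. Hspd1 in B16 1 was likewise apart (share 0.650), at 0 FPKM against 9.46 FPKM or more. Chance flags about 1 in 20 groups. Both are the lowest value of their gene, and they come from different libraries.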

How the results depend on the processing

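Where tested, none of the 10 genes passed limma's test under any alternative, except Hsph1 without Control 2 (log2 difference 3.05), so that leaving out single libraries gave 0 to 1 of 10. The controls then left were at 0.187 and 0 FPKM, and Hsph1 met the filter only through tumor-associated libraries. That call thus rests on control values near the floor. Hspd1 and Hsph1, each at 0 in 1 library, were not tested with the filter on all 9 libraries. Tested alone by the exact permutation test, Hspa8 (0.51), Hsph1 (2.30) and Dnajb1 (1.19) had an unadjusted p under 0.05. That test was run on the 10 genes only, so no share of all genes stands beside it. For Hspa8 it restates that the groups did not overlap, as for 10.5% of all genes tested. The ROC power called 5 of the 10 and 5137 of all genes (51.6%). Counts over all genes depended more on the settings. Without a filter 254, 218 and 135 genes passed for tumor-associated, GL261 and B16 against control, and with an FPKM above 0 in all 9 libraries 212, 225 and 96. With aligned reads as covariate 9, 2 and 5 passed. Fitting only the 6 libraries compared gave 197 for GL261 and 38 for B16. GL261 against B16 had 1 call, 2 after quantile normalization and 6 without a trend. Leaving out single libraries gave 245 to 444 for tumor-associated, 105 to 363 for GL261 and 69 to 274 for B16 against control, and 1 to 4 for GL261 against B16. With quantile normalization the share of higher calls was 59.4% in place of 73.9%.

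Differences that changed sign were all of genes that did not pass. Leaving out single libraries moved the difference from control of tumor-associated MLECs over -0.035 to 2.13 for Hspa1a, -0.32 to 0.56 for Hspa1b, -0.29 to 0.14 for Hsp90ab1, -0.28 to 0.18 for Hspb1 and -1.66 to 0.071 for Hspd1. It moved Hspd1 in GL261 against control over -0.66 to 1.06, and Hsph1 in GL261 against B16 over -0.36 to 0.41. The covariate turned Hspa1b (0.38), Hsp90ab1 (0.20), Hspb1 (0.35) and Hspe1 (-0.30) for both tumors, Hsp90aa1 (0.72) and Hspd1 (-3.79) for GL261, and Hspe1 (-0.13) for B16. Quantile normalization turned Hspa1b (0.0032) for both tumors and Hspa8 (-0.072) for GL261, and rescaling turned Hsph1 (-0.10) in GL261 against B16. The cause was not tested, and depth cannot be told apart from the groups.

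Libraries that share a number did not deviate together (r -0.03 to 0.04 over genes), so no pairing by number was seen. A weak pairing could go unseen in libraries of so few cells. A replicate block changed the call of none of the 10 genes, put Dnajb11 (limma adjusted p = 0.0585), Zfp36 (0.0682) and Egr1 (0.0514) above 0.05, and gave 230 calls in place of 347 for GL261 against control.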
